A study of Equus caballus with 10 samples.

Results

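The elastic fibre and microfibril genes examined here were ELN, FBN1, FBN2, FBLN1, FBLN2, FBLN5, EFEMP1, EFEMP2, MFAP4 and MFAP5. They were chosen with earlier results of these data known, so their counts beside all tested genes below are descriptive and not a test. Rows were picked out by gene symbol, and all 10 were found among the 29196 genes of the deposited expression table. RNA came from equine tenocytes, the resident fibroblasts of tendon, isolated after death from the superficial digital flexor tendon of adult horses and grown for 14 days in 3D gels of bovine collagen type I. Of the 4 groups of the study, 2 were analysed here, each with 5 libraries from the same 5 donor lines, 090811, 130911, 180412, 250718B and CD, which are called donors 1 to 5 below. One group received PF-06650833 alone, an inhibitor of the kinase IRAK-4, at 100 nM every day. The other received the same inhibitor plus 17 ng/ml IL-1β, added every 3 to 4 days. Both groups therefore carried the inhibitor, and the untreated and IL-1β only groups were not analysed here, so the values below describe the response to IL-1β that was present under IRAK-4 inhibition. The cells had been expanded over several passages before the 3D culture, and the donors are separate animals.

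Elastic fibres let tendon and other tissues stretch and recoil. They consist of a core of cross-linked elastin, encoded by ELN, laid down on a scaffold of microfibrils whose backbone is fibrillin, encoded by FBN1 and FBN2. Fibulins (FBLN1, FBLN2, FBLN5, EFEMP1 and EFEMP2) and microfibril-associated proteins (MFAP4 and MFAP5) associate with the elastin core, the microfibrils or both. Several of them bring tropoelastin, the soluble precursor, together with the enzymes that cross-link it. In tendon, elastic fibres lie mainly around the cells and between the fascicles, and microfibrils also hold latent TGF-β in the matrix.

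The expression values are log2 values on a variance-stabilized scale, on which a gene with 0 reads has the value 3.433. The depth, estimated as reads on genes, ranged from 26672336 to 36093461 without IL-1β and from 26963764 to 33464155 with it. Differential expression required an adjusted p of less than 0.05 from limma together with a log2 fold change (log2FC) of ± 1 or beyond, taken as IL-1β plus PF-06650833 over PF-06650833 alone. Levels of different genes are not compared, since the values are not corrected for gene length. The tendon identity of the cells was checked with 10 marker genes, of which 9 were analysed. COL1A1, COL1A2, DCN, COMP, SCX and MKX had reads in all 10 libraries, while TNMD, which encodes tenomodulin, a protein of mature tenocytes, was at the value of 0 reads in all 10.

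When IL-1β was added on top of PF-06650833, several of these genes lost expression, by amounts that differed widely. ELN, FBLN1, FBLN5 and MFAP4 fell, with log2FC between -3.51 and -2.91, which is 7.51-fold to 11.4-fold on the variance-stabilized scale. That scale compresses changes of genes with few reads, and on recovered normalized counts with a pseudocount of 1 the log2FC was -4.37 for ELN, -3.24 for FBLN1, -3.91 for FBLN5 and -3.44 for MFAP4. Of the 10 genes, 4 were differentially expressed, all 4 lower and 0 higher, by limma without a donor term. Of the 17992 genes tested, 6.68% were differentially expressed, 3.57% lower and 3.11% higher. With the donor as a block, 5 of the 10 were differentially expressed, all 5 lower, against 8.26% of tested genes differentially expressed in that fit, 4.25% lower and 4.01% higher, the fifth being MFAP5. The median log2FC was -1.80 over the 10 genes and -0.01 over all tested genes. For 6 of the 10 genes the value was lower with IL-1β in all 5 donors, a pattern that 16.8% of tested genes had. Fewer cells of a kind and less RNA per cell cannot be told apart in bulk RNA.

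**Figure D1:**
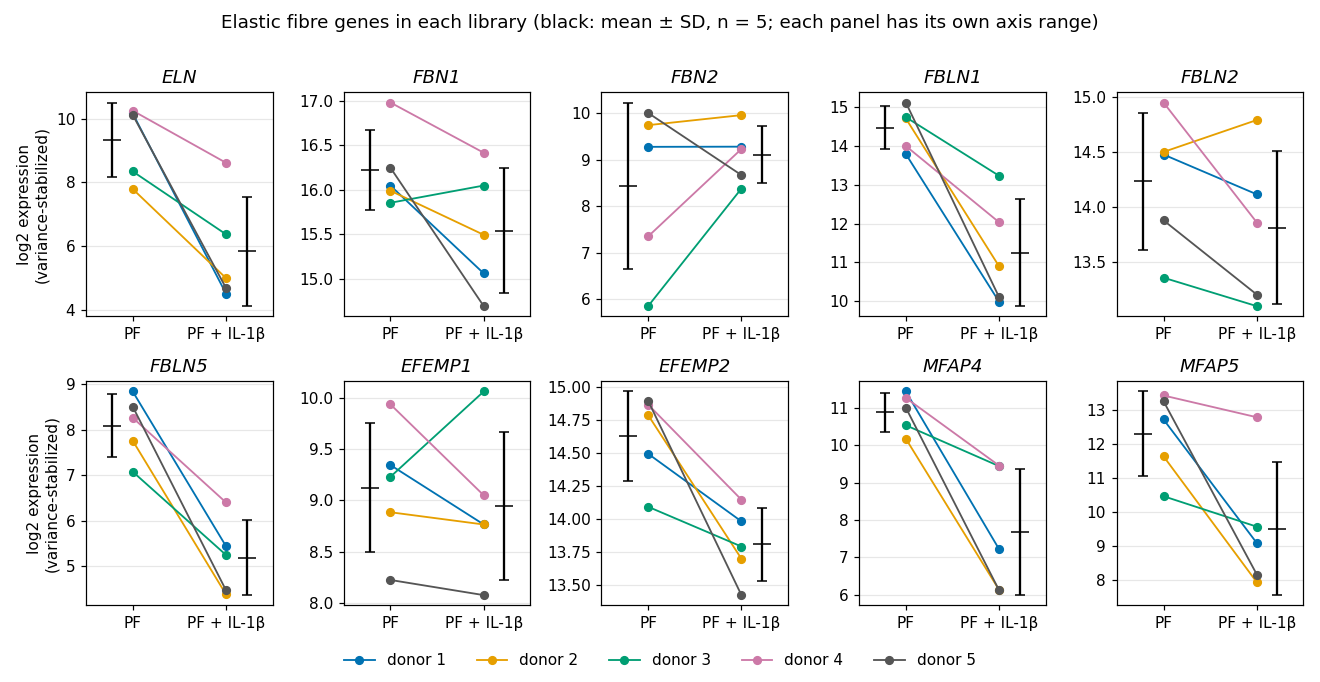
Log2 expression (variance-stabilized, vertical axis) of each of the 10 genes in the 5 libraries with PF-06650833 alone (PF) and the 5 with IL-1β plus PF-06650833 (PF + IL-1β). Lines join the libraries of 1 donor and black bars give the mean ± SD (n = 5). In FBLN1, FBLN5 and MFAP4 every library with IL-1β lies below every library without it, while the groups overlap in the other 7 panels.

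Elastin, the recoiling core of the fibre, had the largest decrease of the 10 genes and the 29th lowest log2FC among the 17992 tested genes. With PF-06650833 alone, ELN expression was 10.17 in donor 1, 7.79 in donor 2, 8.35 in donor 3, 10.26 in donor 4 and 10.13 in donor 5. After IL-1β plus PF-06650833 it was 4.50, 4.99, 6.37, 8.62 and 4.68 in the same order. Donors 1, 4 and 5 thus had high levels without IL-1β, and of these donor 4 alone kept a level above the lowest libraries of the other group, so that the groups overlapped. ELN fell from 9.34 ± 1.18 (SD, n = 5) to 5.83 ± 1.72 (SD, n = 5), a log2FC of -3.51 (SE 0.80, 95% confidence interval -5.27 to -1.75, adjusted p = 0.0137 from limma). The low values rest on few reads. Estimated reads were 152 to 1106 per library without IL-1β, and 5, 12, 54, 264 and 7 in donors 1 to 5 with IL-1β. ELN was no longer differentially expressed when donor 1 (adjusted p = 0.0849 from limma) or donor 5 (adjusted p = 0.0800 from limma) was left out, with log2FC values of -2.97 and -3.02. Those fits had no donor term. With all donors kept and the donor as a block, the adjusted p for ELN was 0.00750 from limma.

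The fibrillins form the microfibril backbone, FBN1 throughout life and FBN2 mainly during development. Neither was differentially expressed. FBN1 was at 16.05, 15.99, 15.85, 16.98 and 16.25 in donors 1 to 5 with PF-06650833 alone, and at 15.06, 15.50, 16.05, 16.41 and 14.70 with IL-1β plus PF-06650833. Its levels rest on 22804 reads or more in each library. The log2FC of FBN1 was -0.68 (95% confidence interval -1.43 to 0.07, adjusted p = 0.210 from limma), it was lower in 4 of 5 donors, and the groups overlapped. With the donor as a block the 95% confidence interval was -1.24 to -0.12, and the adjusted p of 0.0804 from limma still missed the threshold.

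FBN2 differed in opposite directions in different donors, and had the largest SD of the 10 genes with PF-06650833 alone. With PF-06650833 alone it was at 9.28, 9.75, 5.84, 7.35 and 10.01 in donors 1 to 5, an SD of 1.79, and with IL-1β plus PF-06650833 at 9.28, 9.96, 8.38, 9.23 and 8.67, an SD of 0.61. Donors 3 and 4, the lowest without IL-1β, were 2.53 and 1.89 higher with it, donor 5 was 1.34 lower (difference -1.34), and donors 1 and 2 differed by 0.22 or less. Estimated reads without IL-1β were 526, 634, 29, 130 and 970 in donors 1 to 5, and 271 to 862 per library with it. The log2FC of 0.66 had a 95% confidence interval from -0.93 to 2.25 (adjusted p = 0.599 from limma), which does not exclude a change past the minimum in the upward direction. Without the library of donor 3 with PF-06650833 alone, the log2FC was 0.01 (adjusted p = 0.992 from limma). The ratio of FBN2 to FBN1 within a library was higher with IL-1β in 5 of 5 donors, by 1.34 on the log2 scale, but an exact two-sided permutation test over libraries found no difference past the threshold (p = 0.222, adjusted p = 0.423 over 5 ratios of paired genes).

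**Figure D2:**
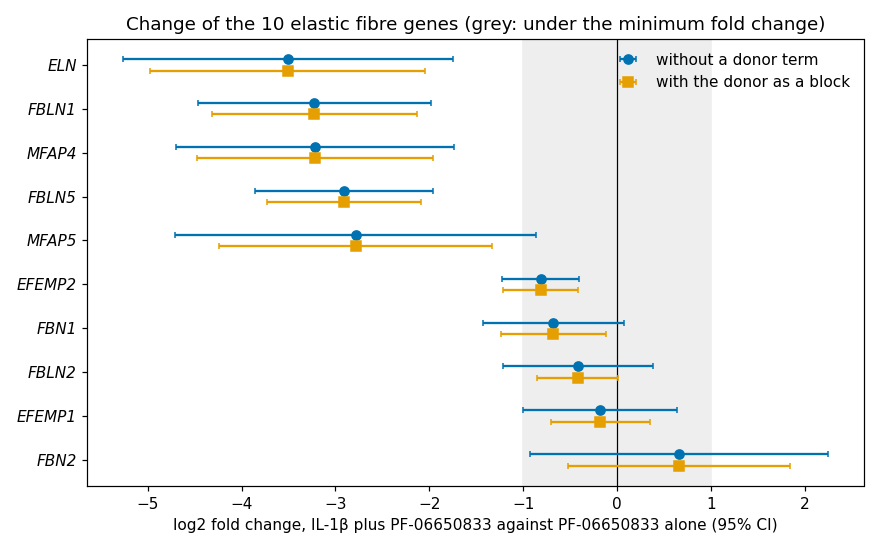
Log2FC of each gene (horizontal axis, 95% confidence interval) from limma without a donor term (circles) and with the donor as a block (squares), with the range under the minimum fold change in grey. The 5 uppermost genes, ELN, FBLN1, MFAP4, FBLN5 and MFAP5, lie between -3.51 and -2.78, and the other 5 between -0.82 and 0.66.

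Among the fibulins, FBLN5 and FBLN1 fell and the others were not differentially expressed. FBLN5 binds tropoelastin and cell-surface integrins and is needed for elastic fibre assembly. Its expression was 8.84, 7.76, 7.08, 8.26 and 8.51 in donors 1 to 5 with PF-06650833 alone and 5.43, 4.37, 5.24, 6.40 and 4.46 with IL-1β plus PF-06650833. The groups did not overlap. FBLN5 fell from 8.09 ± 0.69 (SD, n = 5) to 5.18 ± 0.82 (SD, n = 5), a log2FC of -2.91 (SE 0.43, adjusted p = 0.00162 from limma), the smallest adjusted p of the 10 genes. Reads were 87 to 384 per library without IL-1β and 4 to 45 with IL-1β. The groups of 12.7% of all tested genes did not overlap, and 3 of the 10 genes were of this kind.

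FBLN1 encodes a fibulin of elastic fibres and basement membranes that also binds fibronectin. It was at 13.79, 14.71, 14.74, 14.00 and 15.12 in donors 1 to 5 with PF-06650833 alone, and at 9.98, 10.89, 13.23, 12.03 and 10.10 with IL-1β plus PF-06650833. The groups did not overlap; the closest values were those of donor 3 with IL-1β and donor 1 without it. FBLN1 fell from 14.47 ± 0.56 (SD, n = 5) to 11.25 ± 1.38 (SD, n = 5), a log2FC of -3.22 (SE 0.57, adjusted p = 0.00389 from limma), with 809 reads or more in every library. FBLN1 and FBLN5 stayed differentially expressed in each of the 28 other settings, some of which changed only the thresholds on the main fit. Their adjusted p-values from limma were at most 0.0303 and 0.0159.

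FBLN2, which lies with fibrillin at the surface of elastic fibres, was at 14.48, 14.50, 13.36, 14.95 and 13.88 with PF-06650833 alone and at 14.12, 14.79, 13.10, 13.86 and 13.20 with IL-1β plus PF-06650833, in donors 1 to 5. Its log2FC of -0.42 had a 95% confidence interval from -1.22 to 0.38 (adjusted p = 0.486 from limma), and the groups overlapped. In each donor the ratio of FBLN2 to FBLN1 was higher with IL-1β, by 2.80 on average on the log2 scale, from -0.24 ± 1.07 (SD, n = 5) to 2.57 ± 1.76 (SD, n = 5). The exact two-sided permutation test gave p = 0.0238 for this ratio and an adjusted p of 0.119 over the 5 ratios, so it did not pass the correction. The smallest p that 5 libraries against 5 allow is 0.00794, and none of the 5 ratios passed. This test does not use the pairing by donor. An exact two-sided sign-flip permutation test over the 5 within-donor differences, chosen after seeing the data, gave p = 0.0625 (adjusted p = 0.156) for this ratio and for FBN2 to FBN1, the smallest it can give with 5 donors, and 0.125 to 0.438 for the other 3 ratios, so it could not pass for any.

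EFEMP2, the fibulin known as fibulin-4, recruits the cross-linking enzyme lysyl oxidase to tropoelastin. It was at 14.49, 14.78, 14.09, 14.86 and 14.89 with PF-06650833 alone and at 13.98, 13.70, 13.79, 14.14 and 13.42 with IL-1β plus PF-06650833, lower in 5 of 5 donors. Donor 4 with IL-1β stood above donor 3 without it, so the groups overlapped. The log2FC of -0.82 (SE 0.18, 95% confidence interval -1.22 to -0.41, adjusted p = 0.0134 from limma) passed the threshold on p and lay under the minimum fold change. With the threshold on p alone, 5 of the 10 genes passed, against 15.5% of all tested genes.

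EFEMP1, or fibulin-3, had the smallest absolute log2FC of the 10 genes. It was at 9.34, 8.88, 9.23, 9.94 and 8.22 with PF-06650833 alone and at 8.77, 8.77, 10.06, 9.05 and 8.08 with IL-1β plus PF-06650833. The log2FC was -0.18 (95% confidence interval -0.999 to 0.64, adjusted p = 0.798 from limma), and donor 3 stood 0.83 higher with IL-1β where the other 4 donors were lower. The ratio of EFEMP2 to EFEMP1 differed by -0.64 on the log2 scale between the groups and was higher with IL-1β in 2 of 5 donors (exact two-sided permutation test, p = 0.254, adjusted p = 0.423).

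MFAP4 and MFAP5 encode proteins that sit on the microfibrils, the first also binding tropoelastin and the second, together with its relative MFAP2, binding fibrillin. MFAP4 was at 11.45, 10.18, 10.54, 11.27 and 11.01 in donors 1 to 5 with PF-06650833 alone, and at 7.22, 6.13, 9.44, 9.46 and 6.12 with IL-1β plus PF-06650833. The groups did not overlap, and with IL-1β donors 3 and 4 stood above the other 3 donors. MFAP4 fell from 10.89 ± 0.52 (SD, n = 5) to 7.67 ± 1.68 (SD, n = 5), a log2FC of -3.22 (SE 0.67, adjusted p = 0.00917 from limma). Reads were 863 to 2427 per library without IL-1β and 43 to 586 with IL-1β. Without donor 1 MFAP4 was not differentially expressed (log2FC -2.96, adjusted p = 0.0634 from limma), and since ELN was lost as well, 2 of the 10 genes remained in that fit, which had no donor term. With all donors kept and the donor as a block, the adjusted p for MFAP4 was 0.00571 from limma.

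MFAP5 had a change of similar size and a wider spread. With PF-06650833 alone it was at 12.72, 11.64, 10.47, 13.42 and 13.25, and with IL-1β plus PF-06650833 at 9.09, 7.94, 9.57, 12.78 and 8.17. Donor 4 with IL-1β was above donors 1, 2 and 3 without it. The log2FC was -2.78 (SE 0.88, 95% confidence interval -4.71 to -0.86), and the adjusted p of 0.0536 from limma missed the threshold. With the donor as a block MFAP5 was differentially expressed (SE 0.63, adjusted p = 0.0179 from limma). It was also differentially expressed without the library of donor 4 with IL-1β (log2FC -3.60, adjusted p = 0.00309 from limma), without donor 4 (-3.32, adjusted p = 0.00761) and without the library of donor 3 with PF-06650833 alone (-3.24, adjusted p = 0.0330). The ratio of MFAP5 to MFAP4 differed by 0.43 on the log2 scale (exact two-sided permutation test, p = 0.508, adjusted p = 0.508), and that of FBLN5 to ELN by 0.60 (p = 0.357, adjusted p = 0.446).

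The size of the decrease differed between donors for the genes that fell. Over ELN, FBLN1, FBLN5 and MFAP4, the median within-donor difference in log2 expression was -4.02 in donor 1, -3.60 in donor 2, -1.67 in donor 3, -1.84 in donor 4 and -4.96 in donor 5. The smallest decrease was in donor 3 or 4 for 4 of these 4 genes, as it was for 80.8% of all genes that were differentially expressed and lower. The largest was in donor 5 for 3 of the 4, against 47.7% of those genes. Donor 5 had the largest and donor 3 the smallest median decrease in the wider response as well. Over all genes that were differentially expressed and lower, the median within-donor differences were -1.54, -1.78, -0.91, -1.39 and -2.03 in donors 1 to 5. With 1 library per donor and group, the difference between donors has no replicate and was not tested.

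**Figure D3:**
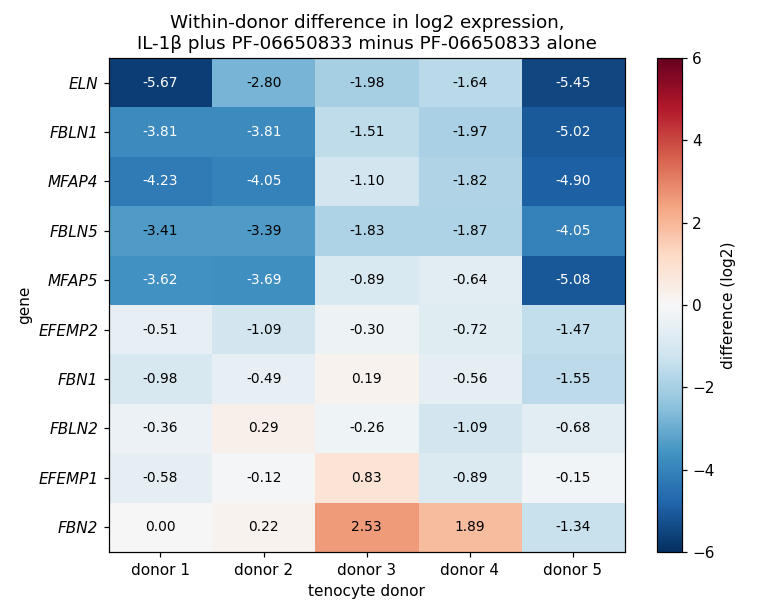
Difference in log2 expression between the libraries of the same donor, IL-1β plus PF-06650833 minus PF-06650833 alone (colour and printed value), for the 10 genes (rows) in the 5 donors (columns). Differences of ELN, FBLN1, MFAP4, FBLN5 and MFAP5 lie between -5.67 and -2.80 in donors 1, 2 and 5 and between -1.98 and -0.64 in donors 3 and 4.

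With IL-1β, donor 4 had the highest level in 6 of the 10 genes (ELN, FBN1, FBLN5, EFEMP2, MFAP4 and MFAP5), against 24.3% of all tested genes. Donor 3 had the lowest level with PF-06650833 alone in 6 of the 10 (FBN1, FBN2, FBLN2, FBLN5, EFEMP2 and MFAP5), against 24.6% of all tested genes. The SD between donors was larger with IL-1β in 8 of the 10 genes, the exceptions being FBN2 and EFEMP2, and in 57.2% of all tested genes. Among the genes that fell, this widening was largest for MFAP4, whose SD went from 0.52 to 1.68.

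Elastic fibres need other components, enzymes and receptors, and 60 genes of these kinds were listed, also with earlier results of these data known. Of these, 58 were analysed and 54 could be tested. The others (FBN3, HMCN2, ELANE and MMP7) had no reads in most libraries. Of the 54, 14 were differentially expressed, 10 lower and 4 higher, against 6.68% of all tested genes, 3.57% lower and 3.11% higher. With the donor as a block 17 were, 13 lower and 4 higher, against 8.26% of all tested genes, 4.25% lower and 4.01% higher. The counts for each list below, and those for the marker genes, stand against the same shares. The median log2FC of the 54 was -0.23.

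Of 12 tested further components of microfibrils and elastic fibres, 3 were lower and 0 higher. FBLN7, a further fibulin, fell by 2.70 on the log2 scale, from 11.52 ± 0.71 (SD, n = 5) to 8.83 ± 1.13 (SD, n = 5) (adjusted p = 0.00551 from limma). In the family named latent TGF-β binding proteins, LTBP2 was lower, with a log2FC of -2.26 (adjusted p = 0.0131 from limma). LTBP4, which promotes elastic fibre assembly with FBLN5, was lower as well, with a log2FC of -1.85 (adjusted p = 0.0232 from limma). LTBP4 was not differentially expressed in 9 of the 15 fits that dropped 1 library or 1 donor, and LTBP2 not without donor 2 or without donor 5. Those fits had no donor term. On all donors with the donor as a block, the adjusted p was 0.00607 for LTBP2 and 0.0135 for LTBP4 from limma. LTBP1 (log2FC -0.19, adjusted p = 0.711 from limma), LTBP3 (-0.21, adjusted p = 0.484) and MFAP2 (-0.03, 95% confidence interval -0.36 to 0.30, adjusted p = 0.922) did not pass. EMILIN2 (-1.001, adjusted p = 0.120) was differentially expressed with the donor as a block (adjusted p = 0.0272 from limma), on 116 reads per library or fewer.

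Lysyl oxidases cross-link elastin and collagen, and 3 of the 6 tested cross-linking enzymes were lower and 0 higher. LOX fell from 14.40 ± 0.68 (SD, n = 5) to 12.03 ± 1.32 (SD, n = 5), a log2FC of -2.37 (adjusted p = 0.0172 from limma). It lost its call when donor 1, donor 2 or donor 5 was left out, in fits without a donor term. With all donors kept and the donor as a block, its adjusted p was 0.00213 from limma. LOXL4 fell by 2.25 (adjusted p = 0.00103) and LOXL2 by 1.68 (adjusted p = 0.00143). LOXL2 varied little between donors with PF-06650833 alone, with an SD of 0.10. LOXL1, the family member most closely tied to elastin, had a log2FC of -0.21 (95% confidence interval -0.65 to 0.22, adjusted p = 0.528 from limma).

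Of 9 tested ADAMTS and ADAMTS-like genes whose proteins bind or process microfibrils, 2 were lower and 1 higher. ADAMTS6 fell by 2.48 (adjusted p = 0.00494 from limma) and ADAMTSL2, a fibrillin-binding protein without protease activity, by 1.71 (adjusted p = 0.00387). ADAMTSL2 had 22 to 83 reads per library without IL-1β and 1 to 13 with it, and on recovered counts its log2FC was -2.91. THSD4, also called ADAMTSL6, which promotes fibrillin microfibril assembly, rose by a log2FC of 1.84 (adjusted p = 0.0436), higher in 4 of 5 donors and 0.34 lower in donor 4 (difference -0.34). That call was lost in 13 of the 15 fits that dropped 1 library or 1 donor, all without a donor term. The donor block on all donors gave THSD4 an adjusted p of 0.0195 from limma. ADAMTSL4 (0.79, adjusted p = 0.0103 from limma) passed on p and lay under the minimum fold change. It was higher in 5 of 5 donors, and its groups did not overlap.

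Of 7 tested proteases that can cut elastin, 1 was higher and 0 lower. MMP9, a gelatinase with elastase activity, rose from 13.80 ± 0.71 (SD, n = 5) to 15.89 ± 1.10 (SD, n = 5), a log2FC of 2.09 (adjusted p = 0.0182 from limma). It was higher in 4 of 5 donors, the exception again being donor 4. The call was lost without donor 1, donor 2 or donor 5, in fits without a donor term. The donor block on all donors gave MMP9 an adjusted p of 0.0135 from limma. MMP12, the macrophage elastase, had at most 16 reads in any library without IL-1β and 6 to 235 with it, and was higher in 5 of 5 donors. Its log2FC of 1.43 (2.48 on recovered counts) did not pass (adjusted p = 0.129, and 0.0640 with the donor as a block, from limma). On the threshold on p alone 2 of the 7 passed, MMP9 and CTSS. CTSS (0.90, adjusted p = 0.00436 from limma) lay under the minimum fold change, was higher in 5 of 5 donors, and its groups did not overlap. CTSL was differentially expressed and lower with the donor as a block (-1.05, adjusted p = 0.0136 from limma, against 0.0567 without it).

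Of 10 tested receptors for elastin and fibrillin, 2 were higher and 1 lower. ITGB8, the β8 integrin chain that activates latent TGF-β, rose from 7.77 ± 0.49 (SD, n = 5) to 10.84 ± 0.32 (SD, n = 5), a log2FC of 3.08 (adjusted p = 7.29e-05 from limma). ITGB6 rose by a log2FC of 1.74 (adjusted p = 0.0193), on at most 2 reads per library without IL-1β and 2 to 61 with it (3.70 on recovered counts). It lost its call without donor 1, donor 2 or donor 5, in fits without a donor term. The donor block on all donors gave ITGB6 an adjusted p of 0.0246 from limma. GLB1, whose splice variant is the elastin-binding subunit of the elastin receptor complex, fell by 1.03 (adjusted p = 5.84e-04), at the minimum fold change, and went under it when each library was centred on its median (-0.999) and in 5 of the 15 fits that dropped 1 library or 1 donor. Its partners NEU1 (0.71, adjusted p = 0.0107) and CTSA (0.55, adjusted p = 0.0440) passed on p and lay under the minimum fold change.

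Of 10 tested TGF-β ligands and factors of assembly or trafficking, 1 was lower and 0 higher. FN1, the fibronectin gene whose protein network guides fibrillin assembly, fell from 18.30 ± 0.51 (SD, n = 5) to 16.88 ± 0.71 (SD, n = 5), a log2FC of -1.41 (adjusted p = 0.0369 from limma, and 0.00788 with the donor as a block). The call for FN1 was lost in 10 of the 15 fits that dropped 1 library or 1 donor. MYOCD, the smooth muscle coactivator myocardin, was differentially expressed and lower with the donor as a block (-1.01, adjusted p = 0.00284 from limma, against 0.391 without it).

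**Figure D4:**
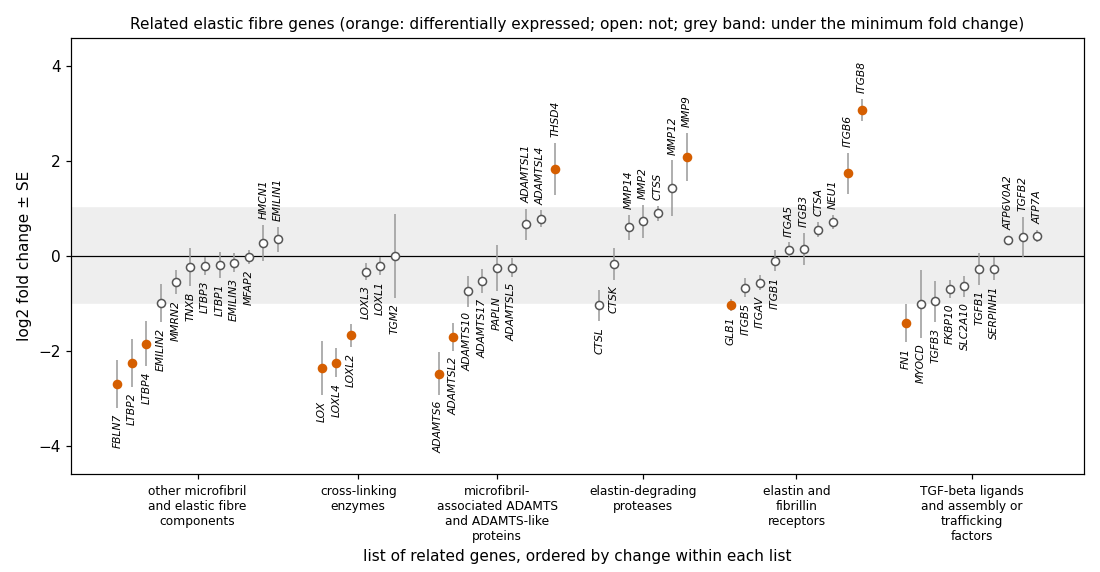
Log2FC ± SE (vertical axis) of the 54 tested related genes, ordered within 6 lists (horizontal axis), with the differentially expressed genes in orange and the range under the minimum fold change in grey. FBLN7, LTBP2, LTBP4, LOX, LOXL4, LOXL2, ADAMTS6, ADAMTSL2, GLB1 and FN1 are the 10 lower genes, and THSD4, MMP9, ITGB6 and ITGB8 the 4 higher ones.

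Markers of tendon fibroblasts and of other cell types were examined as well. Of 7 tested genes of smooth muscle cells and pericytes, cells that also make elastin, 2 were lower and 0 higher, DES (log2FC -2.98, adjusted p = 0.00546 from limma) and RGS5 (-1.96, adjusted p = 0.0106). With the donor as a block 3 were lower, ACTA2 being added (-1.01, adjusted p = 0.0334 from limma, against 0.227 without it). The summed normalized counts of the 7 ranged from 27802 to 199028 without IL-1β and from 38326 to 82374 with it, higher in 1 of 5 donors. Of 8 tested tendon markers 3 were lower, SCX (-3.24, adjusted p = 6.11e-04), COMP (-3.63, adjusted p = 0.00794) and MKX (-2.85, adjusted p = 0.00554), and 0 were higher. With the donor as a block 5 were lower, COL1A1 (-1.38, adjusted p = 0.0147 from limma) and COL1A2 (-1.28, adjusted p = 0.0169) being added. DCN, which encodes decorin, was higher in 5 of 5 donors with a log2FC of 1.01 and did not pass (adjusted p = 0.268, and 0.0529 with the block, from limma). The summed counts of COL1A1 and COL1A2 were lower in 5 of 5 donors, at 740507 to 1312217 against 195200 to 823106, and the sum of the other 7 markers was lower in 2 of 5, at 90563 to 205087 against 41156 to 193760. DCN was the largest part of the latter sum, at a mean of 66871.5 normalized counts without IL-1β and 115817 with it. SCX, MKX and COMP were each lower in 5 of 5 donors, and FMOD and THBS4 in 4 of 5. The 6 endothelial markers summed to at most 50 normalized counts in any library. Of the leukocyte markers, CD3E had no reads in any library and PTPRC at most 3, while CD68 was higher (1.70, adjusted p = 0.00795). CD14 had 1458, 234, 0, 0 and 0 reads in donors 1 to 5 without IL-1β and 1374, 621, 0, 291 and 1044 with it (adjusted p = 0.340 from limma). The 7 leukocyte markers summed to 61 to 1767 normalized counts without IL-1β and to 171 to 1943 with it, and without CD14 to 61 to 119 and to 171 to 757, higher in 5 of 5 donors either way. Most of the sum without CD14 was CD68, at a mean of 80.8 normalized counts without IL-1β and 347 with it. Mean counts of ITGAM were 10.3 and 17.2, higher in 3 of 5 donors. Those of CD163 were 0.23 and 2.05, of CSF1R 0 and 0.23, and of PTPRC 0.62 and 0. The part of these changes in the results on elastic fibre genes was not tested.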

How the data were processed

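RNA of 10 libraries was sequenced by the authors, who checked reads with FastQC (version 0.11.9), assigned them to EquCab3.0 transcripts using Salmon (version 1.8) and its GC-bias correction, imported the estimates through tximport, and named DESeq2 (version 1.36) for differential expression. The authors deposited log2 values, normalized between libraries. The transformation is not named in the sources used here, and variance stabilization was inferred from the lowest value, 3.433, shared by all libraries. Its inverse gave normalized counts, and the spacing of low values the approximate reads. The members and lists were chosen with earlier results of these data known. The thresholds are those of the study.

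Of the genes, those exceeding the lowest value in 5 or more libraries entered a limma fit (version 3.58.1, under R 4.3.3) that had a mean-variance trend, no donor term and Benjamini-Hochberg adjustment over 17992 genes. The replicate number stands for the donor, which pairs the libraries. Deviations from group means correlated across genes at 0.433 on average over 5 pairs of the same donor, and at -0.107 over 20 pairs of different donors. Ratios were compared with an exact permutation test (scipy version 1.17.1), adjusted over 5 ratios. Alternatives were other thresholds, filters, scalings, variance models, the donor block and dropped libraries or donors. Every fit that dropped a library or a donor was run without a donor term. Named were the 10 members and the differentially expressed genes of the related lists. Genes with a call only under the donor block, some without a call, and the markers with values were named after their values were seen. Symbols of all 10 members were found in a RefSeq table of another horse assembly, so no positions or sequences are given.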

Additional observations from a re-analysis of the deposited data

Results flagged for a closer look

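Among 48 groups of 5 libraries, over 24 named genes, 1 group held a library that stood far from its other 4, where chance gives about 2.4. In this case ADAMTS6 of donor 4, under IL-1β plus PF-06650833, was at 7.94, against 6.64 to 6.97 in the remaining libraries.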

How the results depend on the processing

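Of 24 named genes, 11 kept direction and status, called or not, in each of up to 28 other settings. Some settings changed only the thresholds on the main fit. Among the 11, FBN1, FBN2 and FBLN2 were not differentially expressed in any setting. In at least 1 setting 10 genes lost the call and 2 gained it. EFEMP1 alone changed direction, with log2 fold changes of -0.46 to 0.036 across the 15 fits that dropped 1 library or 1 donor (0.023 without the library of donor 4 with PF-06650833 alone, 0.036 without that of donor 5 with IL-1β). The cause was not tested, and dropping a donor removes 2 libraries. Across those 15 fits, 2 to 5 of the 10 elastic fibre genes were differentially expressed (2 without donor 1), 6 to 15 of the related genes and 747 to 1410 of all tested genes, against 4, 14 and 1202. Without a minimum fold change 23 related genes and 2782 of all genes passed, and at an adjusted p below 0.01 there were 7 and 719. With the replicate block there were 5, 17 and 1486, and 1809 of all genes with the block on log2(normalized count + 1) values. The block changed the call of MFAP5, EMILIN2, CTSL and MYOCD, and of no other member or listed related gene. Of the marker genes it added the calls of COL1A1, COL1A2 and ACTA2. Other settings gave counts within 1.5 times the main ones, and no ratio of paired genes, recomputed under quantile normalization, on back-transformed normalized counts and with libraries or donors dropped, changed direction. Genes with few reads, such as ELN and FBLN5 with IL-1β, are limited by depth.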
